A study of Drosophila melanogaster with 36 samples.

Results

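The response of Drosophila melanogaster larvae to caffeine was set directly against their response to phenobarbital. The ratios compared came from 8 of the 36 arrays of the series, the 4 labelled as caffeine-treated and the 4 labelled as phenobarbital-treated 3rd instar larvae. Other arrays of the series entered the estimate of error. Caffeine larvae spent 4 h on food with 1.5 mg/ml caffeine, phenobarbital larvae 4 h on food with 10 mM phenobarbital, and the controls of each compound were kept the same way on food without it. All larvae were of the y; cn bw sp strain, so exposed and control pools carried the same yellow, cinnabar, brown and speck alleles, and they were 4.5 days old when frozen. For each compound 8 extracts of 50 exposed larvae and 8 of 50 control larvae were pooled by arm, 400 larvae per pool, and the pair of pools was hybridised 4 times on a 2-colour array of detoxification genes.

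Cytochrome P450s oxidise drugs, plant toxins and hormones, glutathione S-transferases (GSTs) couple glutathione to reactive compounds, and esterases cleave ester bonds. Insects are thought to clear foreign compounds with these families, many of whose genes lie in tandem clusters, and their transcription is often raised by exposure. Phenobarbital, a barbiturate, is the classical inducer of P450s in flies and mammals, and in the fly the nuclear receptor DHR96 and the factor CncC are known to take part in such responses. Caffeine is a methylxanthine, a plant alkaloid that blocks adenosine receptors and phosphodiesterases in mammals. The 2 exposures differ in compound and in dose, so each difference below is one between these exposures as given and not between the compounds at equal strength.

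Each value is a log2 ratio of exposed over control on an array, after the array's median over its 159 named genes was set to 0. A difference is the caffeine ratio minus the phenobarbital ratio, so that a negative one means a lower ratio with caffeine. Values are given with their SE from limma, with n = 4 arrays per compound. Of the 159 genes 156 had a value on all 8 arrays, and the others had none on caffeine array 4. The limma fit held 34 arrays of the series, so its error and dye term also drew on insecticide larvae and on adults. A gene is called where the Benjamini-Hochberg adjusted p over the 159 genes was under 0.05 and the change at least 1.5-fold. With the 8 arrays fitted alone, 17 genes were called higher and 25 lower with caffeine than with phenobarbital. The arrays of a compound repeat 1 pair of pools, so these p-values measure array error between 2 pairs of pools and not the spread between cultures. The spread was also taken from 5 insecticide pool pairs instead, 1 each for diazinon, dicyclanil, lufenuron, spinosad and nitenpyram larvae. It mixes different treatments and is not a spread between cultures of 1 exposure. With it, and the lone caffeine and phenobarbital pairs assumed to vary alike, 14 genes were higher and 25 lower. These included 8 of the 13 genes called higher and 22 of the 24 called lower against array error.

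Arrays of opposite dye orientation correlated less with caffeine than with phenobarbital. Cy5 labelled the exposed pool on arrays 1 and 3, and Cy3 labelled it on arrays 2 and 4. Across genes, which are not independent replicates, caffeine arrays of the same orientation correlated at r = 0.642 to 0.908 and those of opposite orientation at -0.02 to 0.02. Phenobarbital arrays correlated at 0.937 to 0.967 within and 0.598 to 0.703 between orientations. The phenobarbital ratios also spread more over the genes (SD 1.24 against 0.70), so these correlations do not compare the size of the dye effect. Differences within each orientation are therefore given for the named genes called in the contrast. Between 1514 and 1702 spots gave a ratio on the 8 arrays. The labels do not say which dye was the numerator. Red over green was assumed, a choice made with the phenobarbital ratios of Cyp6a2, Cyp6a8 and Cyp6a9 known, and with the other choice every higher and lower would swap.

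Fewer genes were called with caffeine than with phenobarbital, and the ratios spread less. With caffeine 20 genes were higher than control (12.6% of the 159 tested) and 8 lower (5.03%), and with phenobarbital 36 were higher (22.6%) and 33 lower (20.8%). The SD of the ratios over the genes was 0.70 with caffeine and 1.24 with phenobarbital, and the ratio lay farther from 0 with phenobarbital in 117 of 159 genes. With the arrays whose exposed pool carried Cy3 alone the counts were equal, 77 genes called with caffeine and 77 with phenobarbital. In the direct contrast 37 genes were called (23.3%), of which 13 were higher (8.18%) and 24 lower (15.1%) with caffeine. The other 122 were not called, and 56 genes had an unadjusted p under 0.05. The median difference over all genes was 0.10 and the median SE of a difference 0.32.

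Most of the 24 lower genes were ones that phenobarbital raised. Over control 23 of them were called higher with phenobarbital, against 36 of all 159 genes (22.6%). Of the 23, 13 were called with phenobarbital and not with caffeine and 10 with both compounds. The remaining gene, GstD9, was called with neither, at -0.47 with caffeine and 0.26 with phenobarbital. Of the 13 genes higher in the contrast, 9 were called lower with phenobarbital, against 33 of all genes (20.8%). With caffeine 4 were called higher, against 20 of all (12.6%): Cyp4p3, GstE1, GstO1 and Cyp6a8. Cyp4p3 stands in both counts, being called in opposite directions by the 2 compounds, and GstT2 in neither. The contrast is built from these same ratios, so a lower call favours a high phenobarbital ratio and a higher call a low one. The counts describe the calls and test nothing further.

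**Figure D1:**
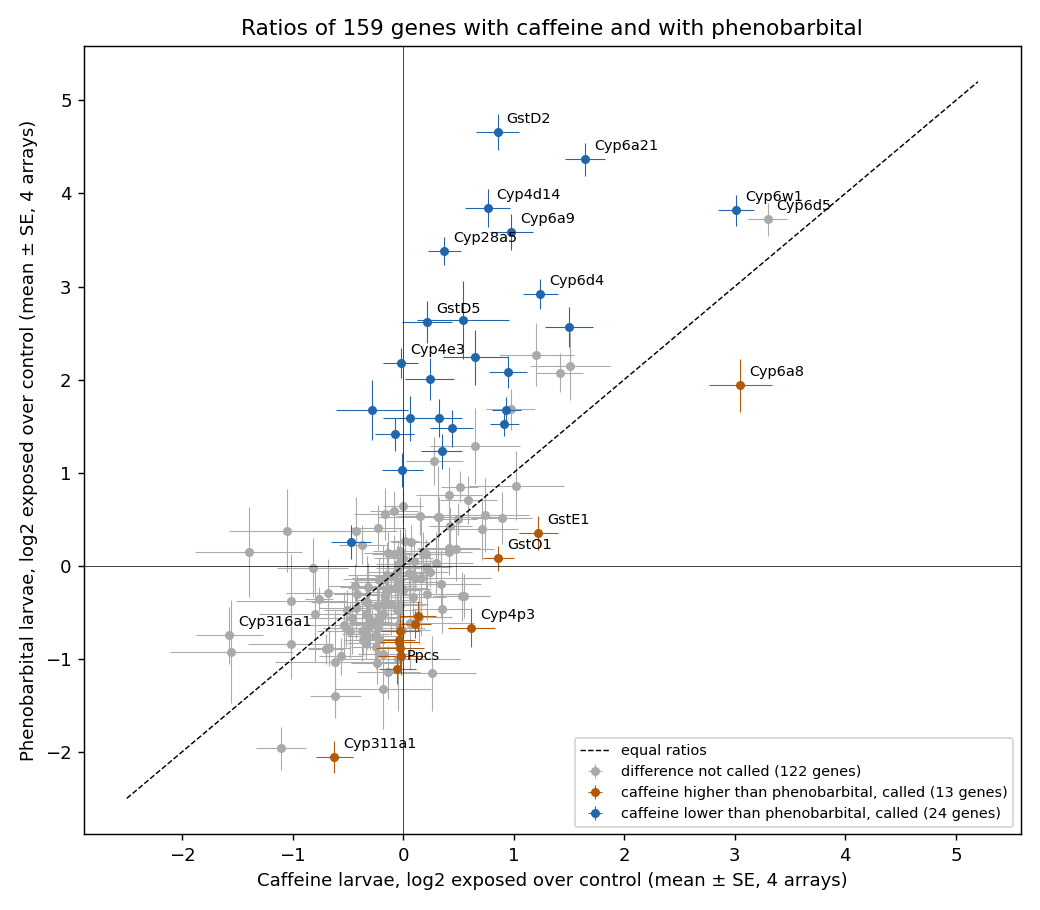
Log2 ratio of exposed over control with caffeine (x axis) and with phenobarbital (y axis) for 159 genes, as mean ± SE of 4 arrays each, with the line of equal ratios dashed. All 8 arrays gave a value for 156 of the genes. The 24 genes with a lower ratio with caffeine lie above the line, GstD2 farthest at 0.86 with caffeine and 4.66 with phenobarbital, and the 13 with a higher ratio lie below it.

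The 2 groups of arrays did not overlap for 22 of the 159 genes (13.8%), among them 15 of the 24 lower and 5 of the 13 higher genes. Taken within each dye orientation, caffeine arrays lay below the phenobarbital arrays in both orientations for 21 of the 24 lower genes and for 29 of all genes (18.2%). They lay above them in both for 11 of the 13 higher genes and for 28 of all (17.6%). The calls used these same arrays, so these counts describe them and are no further test.

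The split of the calls depended on how the arrays were centred, the higher calls more than the lower ones. With arrays as deposited, without centring, limma called 0 genes higher and 14 lower, and 2 genes were higher at an unadjusted p under 0.05. With arrays centred on 4 control genes 4 were higher and 30 lower, and on all spots 10 and 26. The median difference over all genes was 0.10 with arrays centred on the named genes, -0.10 as deposited, 0.11 on all spots and -0.12 on control genes. Under all 3 of these alternatives 14 of the 24 lower genes and 0 of the 13 higher genes were called in the same direction. Calls below control depended on it too: as deposited 0 genes were lower with caffeine and 2 with phenobarbital, and on control genes 1 and 3.

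The largest gap was in GstD2, a GST of the delta class, which is often linked to insecticide metabolism. On arrays 1 to 4 its ratio was 1.49, 0.28, 1.41 and 0.24 with caffeine, against 5.50, 3.71, 5.51 and 3.92 with phenobarbital. All caffeine arrays lay above 0 and all phenobarbital arrays far above them. The difference was -3.81 ± 0.28, a 14.0-fold lower ratio with caffeine (limma adjusted p = 3.41e-12), and it was -4.06 with the exposed pool in Cy5 and -3.56 with it in Cy3.

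Across the delta class the caffeine ratios ran from -0.47 (GstD9) to 0.86 (GstD2). The phenobarbital ratios spread more widely, from -0.97 (GstD11) to 4.66 (GstD2). Of its 11 measured members 7 were lower and 1 higher in the contrast, 63.6% and 9.09% against 15.1% and 8.18% of all genes, with a median difference of -0.88. With caffeine 1 member, GstD2, was called higher over control, and with phenobarbital 7 were higher and 1 lower. On control genes the caffeine ratios of GstD1 (0.65) and GstD5 (0.71) were called higher too. GstD5 had 0.80, -0.34, 0.79 and -0.39 with caffeine, against 3.36, 1.89, 3.45 and 1.78 with phenobarbital, a difference of -2.40 ± 0.32 (-2.61 within Cy5, -2.20 within Cy3). Its groups did not overlap, and its caffeine arrays fell on both sides of 0 with the dye.

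GstD7 had 1.11, 0.08, 1.05 and -0.06 with caffeine, against 2.62, 2.68, 1.89 and 3.38 with phenobarbital. Its difference of -2.10 ± 0.59 (limma adjusted p = 0.00878) was -1.17 within Cy5 and -3.02 within Cy3, and the call was lost with arrays as deposited or scaled to the same spread. GstD10 (-1.03), GstD6 (-1.04), GstD4 (-0.88) and GstD9 (-0.73) were the other lower members, named here as members of the class after their values were seen. GstD6 differed by -1.60 within Cy5 and -0.47 within Cy3, and the other 3 by -0.84 to -1.10 within Cy5 and -0.62 to -0.98 within Cy3. GstD1, an enzyme that can metabolise DDT, had 1.08, -0.59, 0.81 and -0.68 with caffeine, against 1.26, -0.23, 1.36 and -0.25 with phenobarbital. These arrays overlapped, and the difference of -0.38 was not called, with a 95% interval from -0.98 to 0.22. It was -0.37 within Cy5 and -0.39 within Cy3, with the groups apart in both, and it was called lower on control genes (-0.60).

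The exception in the class was GstD11. Its ratio was -0.19, 0.55, -0.55 and 0.12 with caffeine, against -2.24, 0.18, -2.56 and 0.75 with phenobarbital. The difference of 0.95 ± 0.30 (limma adjusted p = 0.0181) came from the Cy5 arrays, where it was 2.02, while it was -0.13 within Cy3. The call was lost in each of the 3 centring alternatives.

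In the RefSeq Release 6 annotation the 11 GstD genes are neighbours among the measured genes of chromosome arm 3R. In their order GstD10, GstD9, GstD1, GstD2, GstD3, GstD4, GstD5, GstD6, GstD7, GstD8 and GstD11 the differences ran between -3.81 and 0.95. GstD2 thus stood between GstD1 (-0.38) and GstD3 (-0.64), neither of them called. Probes of such closely related genes can bind each other's transcripts, and cross-hybridisation was not tested.

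**Figure D2:**
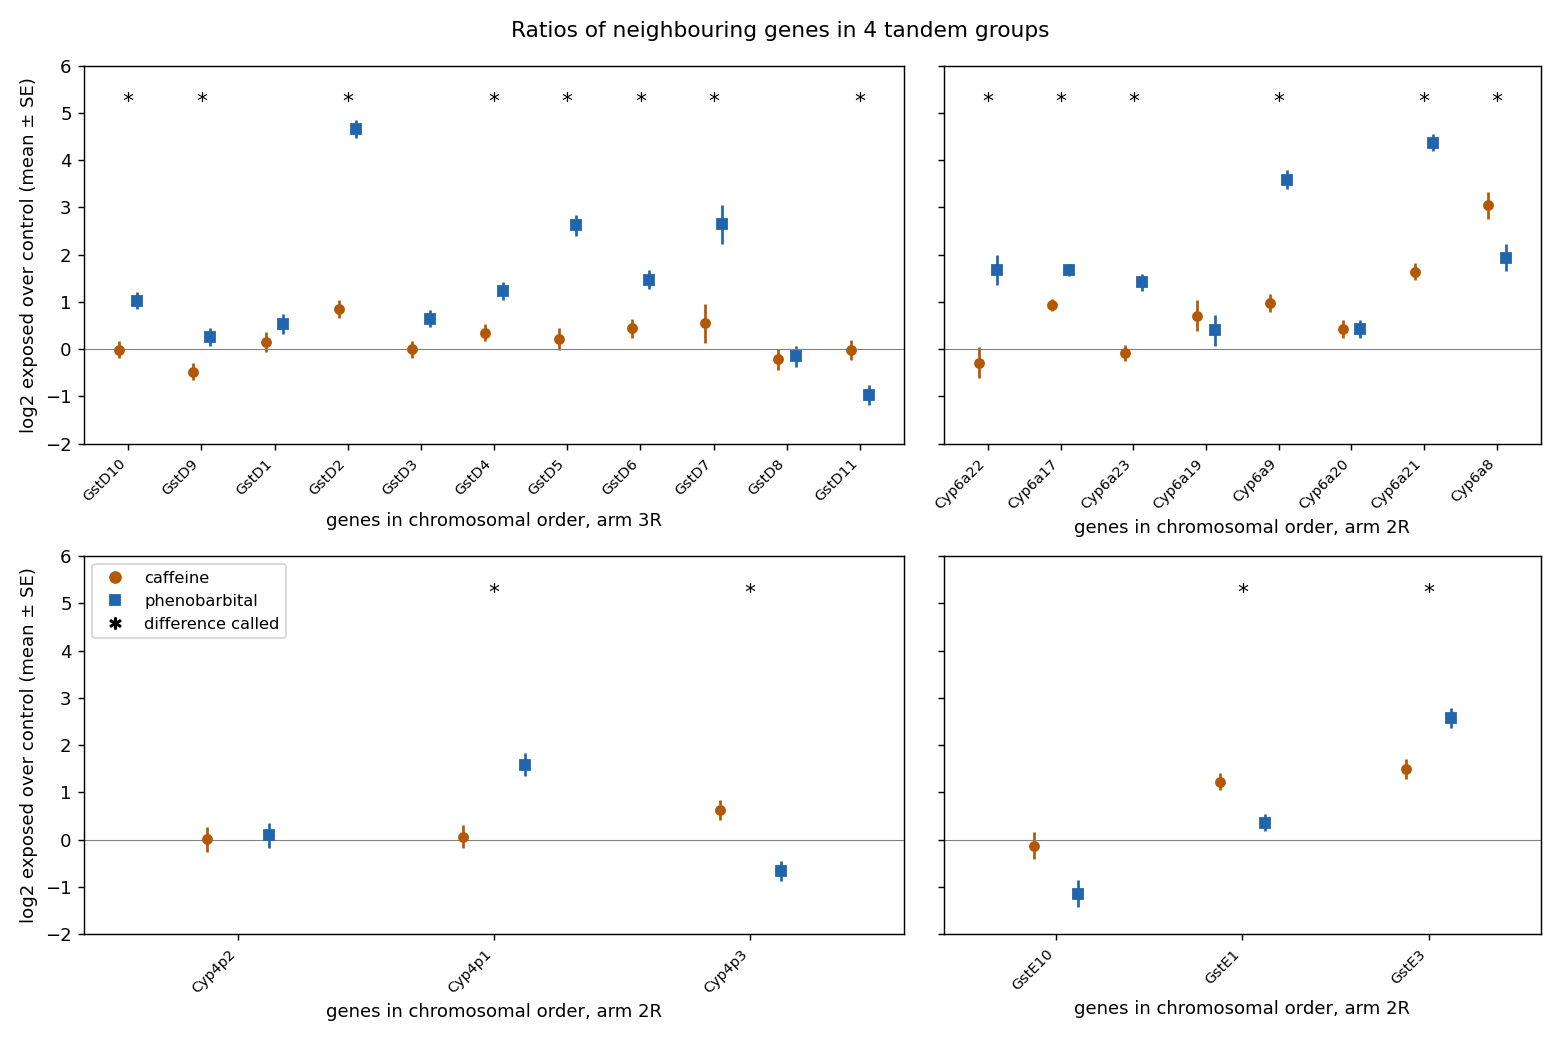
Log2 ratio of exposed over control (mean ± SE, 4 arrays) with caffeine (circles, left) and phenobarbital (squares, right) for neighbouring measured genes in chromosomal order. Stars mark a called difference: 8 of 11 in the GstD run on arm 3R, 6 of 8 in the Cyp6a run on arm 2R, and 2 of 3 each in the Cyp4p and GstE runs on arm 2R.

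Among the 85 P450s 4 were higher and 14 lower in the contrast, 4.71% and 16.5% against 8.18% and 15.1% of all genes, with a median difference of -0.04. The CYP3 clan, which holds the Cyp6, Cyp9 and Cyp28 families, had 1 of 38 higher and 9 lower (2.63% and 23.7%). The CYP4 clan had 3 of 32 higher and 4 lower (9.38% and 12.5%), and its median difference, 0.11, turned to -0.09 with arrays as deposited and -0.11 on control genes. The mitochondrial clan had 0 of 9 higher and 1 lower. The CYP2 clan had 0 of 6 called by limma, 1 of them having an unadjusted p under 0.05.

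The Cyp6a subfamily, which holds the P450s best known to answer phenobarbital in flies, had 5 of 14 lower and 1 higher, 35.7% and 7.14% against 15.1% and 8.18% of all genes, with a median difference of -0.32. Over control 5 members were called higher with caffeine and 8 with phenobarbital, and 0 lower with either. Cyp6a21 had 2.21, 1.35, 2.15 and 0.85 with caffeine, against 4.97, 3.62, 5.13 and 3.75 with phenobarbital. It was clearly above control on all 8 arrays and lower with caffeine in both orientations, by -2.72 ± 0.25 (limma adjusted p = 6.39e-10), -2.86 within Cy5 and -2.58 within Cy3. Cyp6a9, long known as an inducible gene, had 1.05, 0.73, 1.28 and 0.85 with caffeine, against 4.23, 2.80, 4.45 and 2.85 with phenobarbital, a difference of -2.61 ± 0.28 (-3.18 within Cy5, -2.04 within Cy3).

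Cyp6a22 had -0.46, 1.53, 0.10 and -2.30 with caffeine, against 1.95, 1.48, 1.92 and 1.35 with phenobarbital. The caffeine arrays disagreed among themselves and overlapped the phenobarbital arrays, and the difference of -1.96 ± 0.46 (-2.11 within Cy5, -1.80 within Cy3) was no longer called with the 8 arrays fitted alone. Cyp6a23 (-1.49) and Cyp6a17 (-0.74) were lower as well.

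Cyp6a8 went the other way from its neighbours. This gene, whose promoter is known to answer both barbiturates and caffeine, had 3.11, 3.05, 3.19 and 2.85 with caffeine, against 1.52, 2.49, 1.25 and 2.50 with phenobarbital. The caffeine arrays were close to each other and above all phenobarbital arrays, which split by dye. The difference was 1.11 ± 0.40 (limma adjusted p = 0.0437), 1.77 within Cy5 and 0.45 within Cy3.

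The call of Cyp6a8 was fragile. The adjusted p was 0.0513 with the replicate block, and the call was lost in 14 of 27 alternatives, 6 of which leave out a single array (caffeine 1 or 3, or any phenobarbital array). With pool pairs as repeats the adjusted p was 0.0273. On arm 2R the measured neighbours Cyp6a22, Cyp6a17, Cyp6a23, Cyp6a19, Cyp6a9, Cyp6a20, Cyp6a21 and Cyp6a8 stand in this order. Cyp6a21 at -2.72 and Cyp6a8 at 1.11 were next to each other. Cyp6a19 (0.31) and Cyp6a20 (-0.00) were not called.

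**Figure D3:**
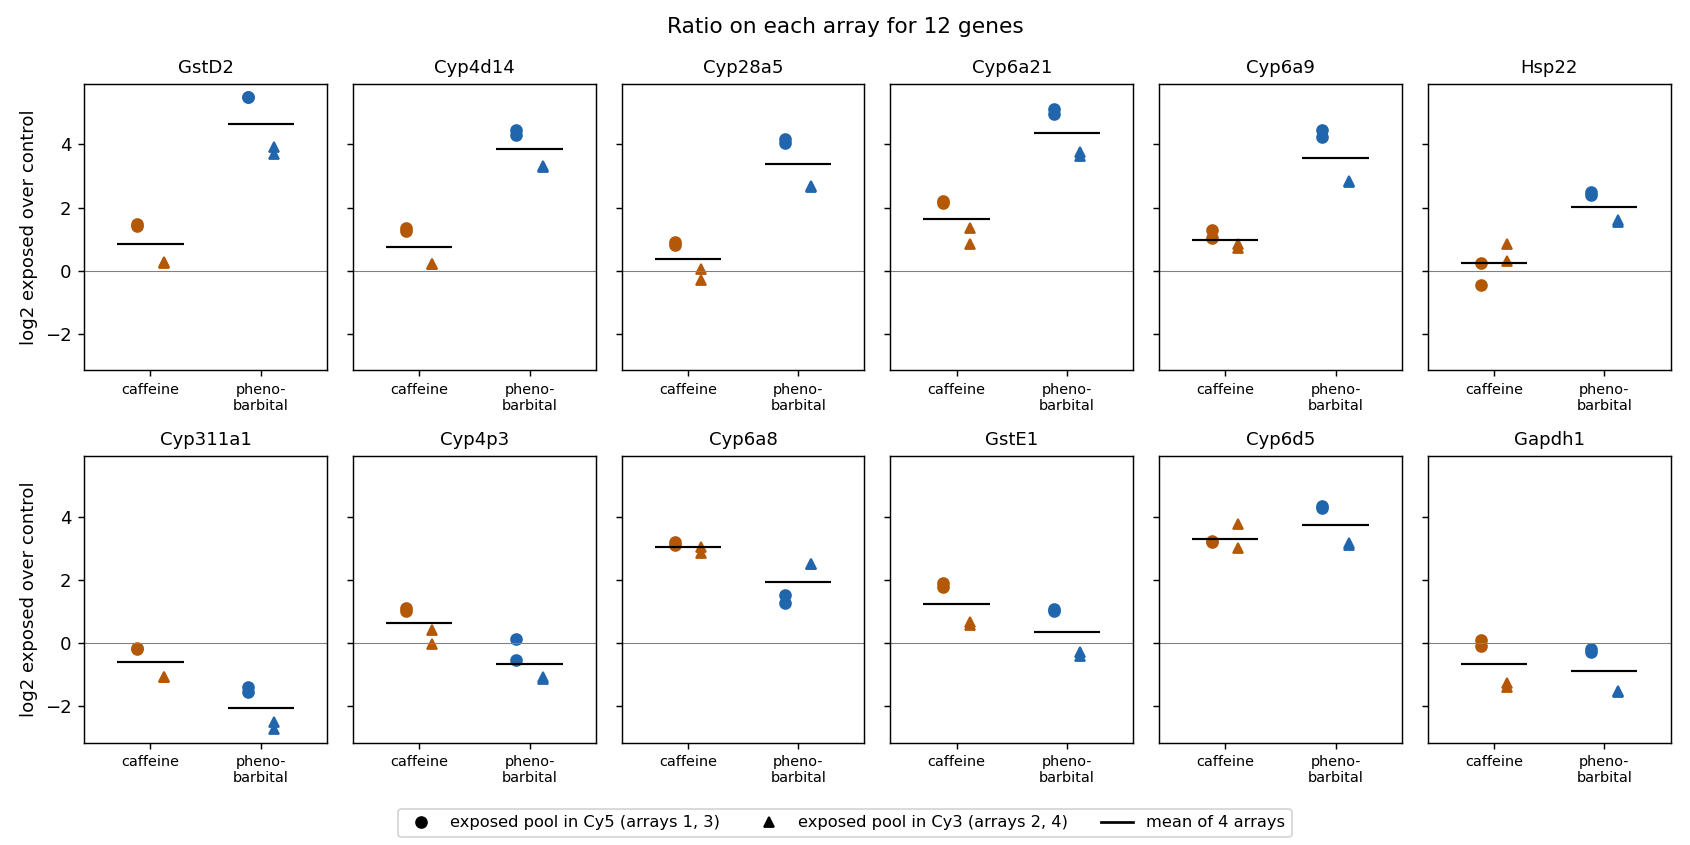
Log2 ratio of exposed over control on each array for 12 genes, caffeine left and phenobarbital right in each panel, with the mean of 4 arrays as a line. Circles are arrays with the exposed pool in Cy5 and triangles those with it in Cy3. The caffeine arrays lie below all phenobarbital arrays in the 6 genes of the top row and above them in Cyp311a1 and Cyp6a8, and they overlap in Cyp4p3, GstE1, Cyp6d5 and Gapdh1.

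Outside the Cyp6a subfamily the largest P450 gaps were in Cyp4d14, which was called higher with both compounds, and in Cyp28a5 and Cyp4e3, which were called with phenobarbital and not with caffeine. Cyp4d14 had 1.26, 0.22, 1.35 and 0.23 with caffeine, against 4.45, 3.32, 4.31 and 3.30 with phenobarbital. The difference of -3.08 ± 0.28 was -3.08 within each orientation, and the caffeine ratio of 0.76 was itself called higher. Cyp28a5 had 0.92, 0.05, 0.82 and -0.29 with caffeine, against 4.05, 2.65, 4.17 and 2.67 with phenobarbital, and differed by -3.01 ± 0.21 (limma adjusted p = 3.41e-12), -3.24 within Cy5 and -2.78 within Cy3. Its caffeine ratio of 0.37 was not called, but it was called higher with arrays centred on all spots (0.61) or control genes (0.87).

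Cyp4e3 had 0.70, -0.59, 0.41 and -0.60 with caffeine, against 2.56, 1.79, 2.63 and 1.73 with phenobarbital. The caffeine arrays lay on both sides of 0, and the difference was -2.20 ± 0.22, -2.04 within Cy5 and -2.36 within Cy3. Its relative Cyp4e2, which was called higher with both compounds, differed by -1.13. Thus 2 of the 3 Cyp4e genes were lower, against 15.1% of all genes. Cyp4p1, chosen as a neighbour of Cyp4p3 after its values were seen, had 0.20, -0.21, 0.52 and -0.28 with caffeine, against 1.73, 0.96, 3.00 and 0.65 with phenobarbital, a difference of -1.53 ± 0.34. Of its spot values 16.1% were ratios of small whole numbers, the highest share among the called genes. Such values may come from dim spots, which was not tested, as no intensities were used.

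Cyp4p3 was the gene called in opposite directions with arrays centred on the named genes. Its ratio was 1.01, -0.05, 1.10 and 0.40 with caffeine, against -0.55, -1.08, 0.13 and -1.15 with phenobarbital. One phenobarbital array lay above one caffeine array of the other orientation, and within each orientation the groups were apart. The difference was 1.28 ± 0.30 (limma adjusted p = 0.00193), 1.27 within Cy5 and 1.30 within Cy3. The third Cyp4p neighbour, Cyp4p2, differed by -0.09 and was not called. The opposite direction of Cyp4p3 held with the named genes as the centre: its phenobarbital ratio of -0.66 became 0.12 as deposited and 0.048 on control genes, and it was not called lower in these settings, on all spots (-0.43) or scaled to the same spread (-0.44).

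Cyp311a1 was lower than control with both compounds, and less so with caffeine. It had -0.18, -1.07, -0.15 and -1.08 with caffeine, against -1.56, -2.51, -1.40 and -2.74 with phenobarbital. No caffeine array reached down to a phenobarbital array, and the difference was 1.43 ± 0.24 (limma adjusted p = 3.08e-05), the largest positive one called, 1.31 within Cy5 and 1.55 within Cy3. It was not called with arrays as deposited, where the difference was in the same direction. Its caffeine ratio was called lower with arrays centred on the named genes and not as deposited, on all spots, on control genes or scaled, whereas its phenobarbital ratio was called in each of these.

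Some P450s were called higher with both compounds and not called in the contrast. Of the 16 genes called higher with both, 15 had the larger ratio with phenobarbital, 10 were called lower in the contrast, Cyp6a8 higher, and 5 were not called: Cyp12a5, Cyp4ae1, Cyp6a2, Cyp6d5 and Cyp6g1. Of these Cyp12a5 had the largest difference, -1.06, with a 95% interval from -2.04 to -0.08. It was -2.16 within Cy5 and 0.04 within Cy3, and it was called lower with pool pairs as repeats (limma adjusted p = 0.00998). Cyp6d5 had 3.19, 3.02, 3.24 and 3.75 with caffeine, against 4.28, 3.10, 4.35 and 3.16 with phenobarbital. The groups overlapped, and the difference of -0.42 had a 95% interval from -0.93 to 0.08. It was -1.10 within Cy5 and 0.25 within Cy3, so its direction went with the dye. Cyp6d5 was called lower on control genes, from at least 3 spots, with Cy5 only and without caffeine array 4.

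Cyp6a2, a P450 raised in some DDT-resistant strains, had 1.08, 1.64, 1.43 and 1.88 with caffeine, against 1.36, 3.08, 3.32 and 0.84 with phenobarbital. The phenobarbital arrays enclosed all caffeine arrays. Its difference of -0.64 had a 95% interval from -1.69 to 0.42, and 14.3% of its spot values were small whole-number ratios. The difference was 0.48 when a gene value needed at least 3 spots, and it was called lower when the small-ratio values were left out.

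For Cyp4ae1 the difference was -0.66, with a 95% interval from -1.26 to -0.05. For Cyp6g1, whose overexpression confers resistance to DDT and neonicotinoids, it was -0.71, with an interval from -1.35 to -0.06. Neither passed after adjustment (limma adjusted p = 0.104 and 0.102), and both were called lower with arrays centred on all spots or control genes. These intervals allow differences of more than 1.5-fold, so the ratios are not shown to be alike.

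Cyp6a17 and Cyp12c1 had the smallest differences among the called genes raised by both. Cyp6a17, at 0.93 with caffeine and 1.68 with phenobarbital, differed by -0.74 ± 0.19, -0.80 within Cy5 and -0.68 within Cy3. Cyp12c1 differed by -0.61 ± 0.19, -1.03 within Cy5 and -0.19 within Cy3, and its call was lost in 14 of 27 alternatives. Cyp6w1 and Cyp6d4, named outside the rule after their values were seen, also stood out. Cyp6w1 had 2.95, 2.80, 3.29 and 3.01 with caffeine, against 4.07, 3.68, 4.01 and 3.51 with phenobarbital. Its groups did not overlap and differed by -0.80 ± 0.23 (limma adjusted p = 0.0095). Cyp6d4 differed by -1.68 ± 0.23.

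Cyp9b1, also outside the rule, was called lower at -1.58 ± 0.42 and had the largest gap between dye orientations among the called genes. It had -0.48, 1.91, -0.22 and 1.41 with caffeine, against 2.78, 1.62, 2.94 and 1.61 with phenobarbital. The difference was -3.21 within Cy5 and 0.04 within Cy3. Genes that were not called had larger gaps, such as Cyp18a1 at -1.53 within Cy5 and 3.15 within Cy3. Cyp18a1 had no value on caffeine array 4, so its Cy3 difference rests on caffeine array 2 alone.

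In the epsilon class of GSTs, which holds DDT-metabolising enzymes in mosquitoes, 2 of 11 genes were higher and 1 lower, 18.2% and 9.09% against 8.18% and 15.1% of all genes, with a median difference of 0.42. With caffeine 2 were called higher and 1 lower over control, and with phenobarbital 1 higher and 5 lower. GstE1 had 1.88, 0.67, 1.78 and 0.57 with caffeine, against 1.02, -0.28, 1.08 and -0.41 with phenobarbital. Both groups moved with the dye and overlapped, while within each orientation caffeine was higher. The difference was 0.87 ± 0.25 (limma adjusted p = 0.0107), 0.78 within Cy5 and 0.96 within Cy3. With pool pairs as repeats its limma adjusted p was 0.146. The phenobarbital ratio of GstE1, 0.35, was not called, but was called higher as deposited (1.13) and on control genes (1.06).

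GstE3, a measured neighbour of GstE1, went the other way. It had 2.39, 0.78, 2.10 and 0.73 with caffeine, against 3.65, 1.42, 3.82 and 1.38 with phenobarbital, a difference of -1.07 ± 0.30. GstE10, on the other side of GstE1, stood at -0.13 with caffeine and -1.15 with phenobarbital. Its difference of 1.01 ± 0.40 was not called (limma adjusted p = 0.0661).

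Of the 13 other GSTs 3 were higher and 1 lower, 23.1% and 7.69% against 8.18% and 15.1% of all genes. Their median difference of 0.19 turned to -0.01 with arrays as deposited and -0.03 on control genes. GstO1, of the omega class, had 1.67, 0.17, 1.45 and 0.16 with caffeine, against 0.77, -0.73, 0.92 and -0.65 with phenobarbital, a difference of 0.78 ± 0.19 (limma adjusted p = 0.00347, and 0.098 with pool pairs as repeats). It was 0.71 within Cy5 and 0.85 within Cy3, and the call was lost as deposited and on control genes. The phenobarbital ratio of GstO1, 0.08, was not called, but was called higher as deposited (0.86) and on control genes (0.79). GstZ1, of the zeta class that includes enzymes of tyrosine breakdown, stood at -0.04 with caffeine and -0.79 with phenobarbital. It differed by 0.76 ± 0.21 (0.48 within Cy5, 1.03 within Cy3), with a limma adjusted p of 0.0506 with pool pairs as repeats. Its phenobarbital ratio became -0.01 as deposited and -0.08 on control genes, and was called lower in neither. GstT4, of the theta class, was the lower gene at -1.26 ± 0.29.

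**Figure D4:**
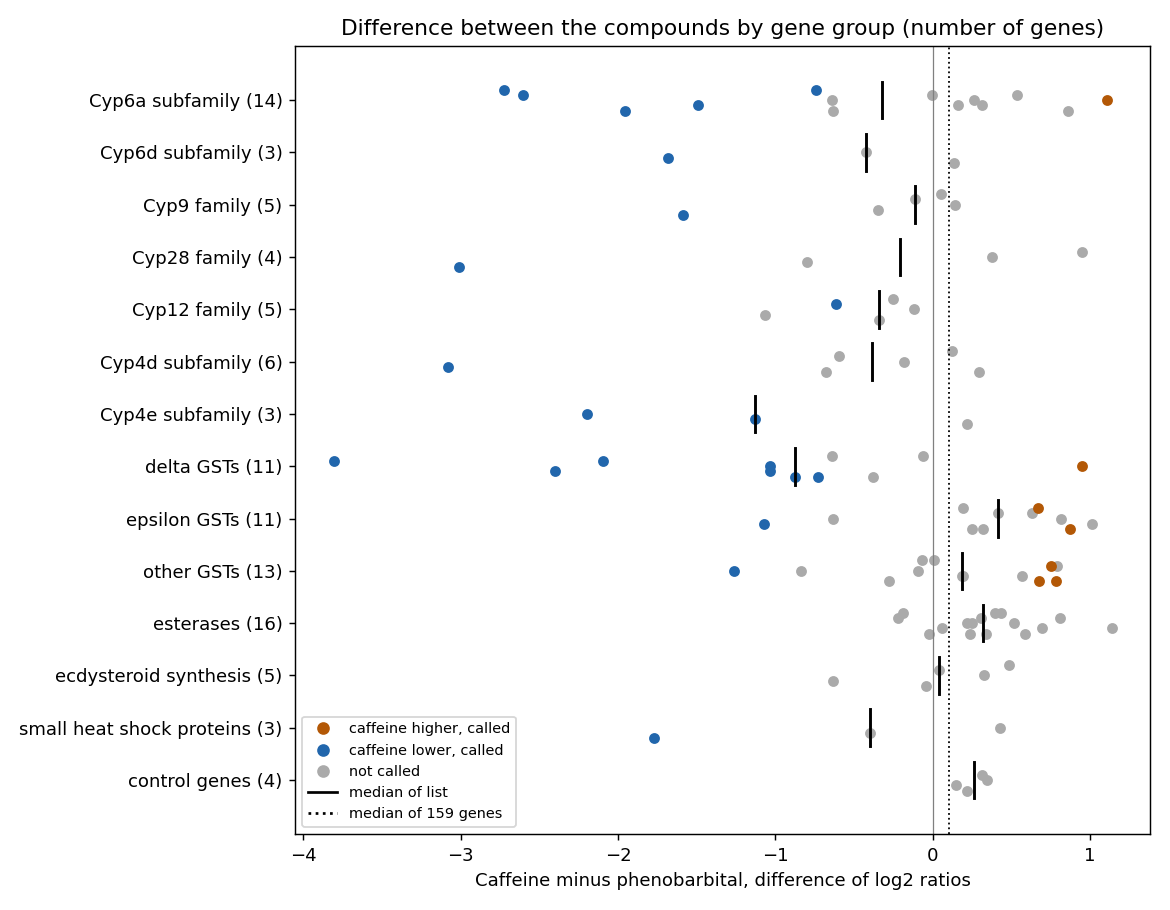
Difference of log2 ratios, caffeine minus phenobarbital, for each gene of 14 gene groups, with the median of each group as a bar and that of 159 genes (0.10) as a dotted line. Blue points are called lower and brown points called higher with caffeine. The delta GSTs have 7 of 11 genes called lower (15.1% of all genes), while the 16 listed esterases have 0 called (23.3% of all genes).

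The listed esterases did not separate the compounds by limma. The list includes the neuroligins Nlg1, Nlg3 and Nlg4, and carboxylesterase-like genes with only a CG number were left out of it. Of the 16 listed, 0 were called in the contrast, against 23.3% of all genes. Among them 1 had an unadjusted p under 0.05, and 1 was called with pool pairs as repeats. Over control 0 of these were called with caffeine, against 12.6% of all genes higher and 5.03% lower. With phenobarbital 5 were called lower, Nlg1 among them, against 20.8% of all genes. The median difference was 0.32. In the alpha-esterase cluster, whose members are known from insecticide resistance in other flies, 0 of 8 were called, with 0 at an unadjusted p under 0.05 and 1 with pool pairs as repeats. That 1, alpha-Est6, had a difference of 1.14 with a 95% interval from -0.13 to 2.41.

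Among the other genes Hsp22, a small heat shock protein of mitochondria, was lower with caffeine. It had -0.44, 0.84, 0.23 and 0.32 with caffeine, against 2.38, 1.61, 2.48 and 1.56 with phenobarbital. The groups were well apart, with a difference of -1.77 ± 0.31 (limma adjusted p = 7.23e-05), -2.53 within Cy5 and -1.004 within Cy3. Hsp26 (-0.40) and Hsp27 (0.43), the other small heat shock genes measured, were not called.

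Ppcs, an enzyme of coenzyme A synthesis, had -0.56, -0.26, -0.49 and 1.11 with caffeine, against -1.26, -0.91, -1.35 and -0.89 with phenobarbital. The phenobarbital arrays were all lower, and caffeine array 4 was above 0 while the other 3 were below it. The difference was 1.05 ± 0.24, 0.78 within Cy5 and 1.33 within Cy3, and between 0.76 and 1.24 with any 1 array left out.

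Gdap1, which encodes a GST-like protein of the mitochondrial outer membrane, differed by 0.86 ± 0.31 (limma adjusted p = 0.0432), 0.93 within Cy5 and 0.78 within Cy3. The adjusted p was 0.0552 with the replicate block, and the call was lost in 16 of 27 alternatives. CAH1, a carbonic anhydrase, differed by 0.79 ± 0.25, 0.44 within Cy5 and 1.15 within Cy3, and lost its call in 11. Both were called lower with phenobarbital, at -0.89 and -0.82, and stood at -0.03 with caffeine. Their phenobarbital ratios became -0.11 and -0.05 as deposited and -0.17 and -0.11 on control genes, and neither was called there. CAH1 was also not called lower on all spots (-0.59), and neither gene was when scaled.

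The 4 control genes were not called in the contrast, and 0 of them had an unadjusted p under 0.05 by limma. Gapdh1, a glycolytic enzyme, stood at -0.67 with caffeine and -0.89 with phenobarbital, a difference of 0.22 (95% interval -0.34 to 0.77). The ribosomal protein genes RpL10Aa, RpS20 and RpS21 differed by 0.15, 0.35 and 0.32. The sign of Gapdh1 turned on control genes (-0.0027) and that of RpL10Aa as deposited (-0.05) and on control genes (-0.07). All 4 were called lower over control with phenobarbital, and Gapdh1 also with caffeine, but Gapdh1 with neither as deposited or on control genes. A ratio near 0 is near the median of the named genes and not a steady amount of RNA.

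Whole larvae were sampled, so fewer cells of a type and less RNA per cell cannot be told apart. Cyp4g1, the hydrocarbon-synthesis P450 of oenocytes, stood at -0.19 with caffeine and -0.95 with phenobarbital, a difference of 0.76 that was not called (limma adjusted p = 0.0831). Of the 5 ecdysteroid synthesis genes, some of which mark the prothoracic gland, limma called 0, and 0 had an unadjusted p under 0.05. Their differences were -0.63 for phtm, -0.04 for dib, 0.33 for sad, 0.49 for spo and 0.04 for shd. Est-P, an esterase of the male reproductive tract, differed by 0.06. The part of any of these tissues in the results was not tested.

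Adult males given phenobarbital were other pools on other arrays, with 3 arrays used and no test made here. Of the 24 genes lower in the larval contrast 13 had an adult ratio at least 1.5-fold above control, against 32 of all 159 genes (20.1%), and their median was 0.82 against -0.07 for all. The adult ratio was 3.68 ± 0.23 for GstD2, 2.88 ± 0.21 for Cyp6a21 and 1.36 ± 0.23 for Cyp4d14. It was -0.09 ± 0.18 for Cyp28a5, -0.16 ± 0.35 for Cyp9b1 and -0.05 ± 0.26 for Hsp22, which were among the genes high in phenobarbital larvae. For Cyp6a8 it was 4.12 ± 0.33, beside 3.05 ± 0.28 in caffeine larvae and 1.94 ± 0.28 in phenobarbital larvae, and these stages were not tested against each other. In larvae given any of the 5 insecticides the ratios of the 24 lower genes lay between -0.36 and 0.82 and those of the 13 higher genes between -0.57 and 0.91.

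**Figure D5:**
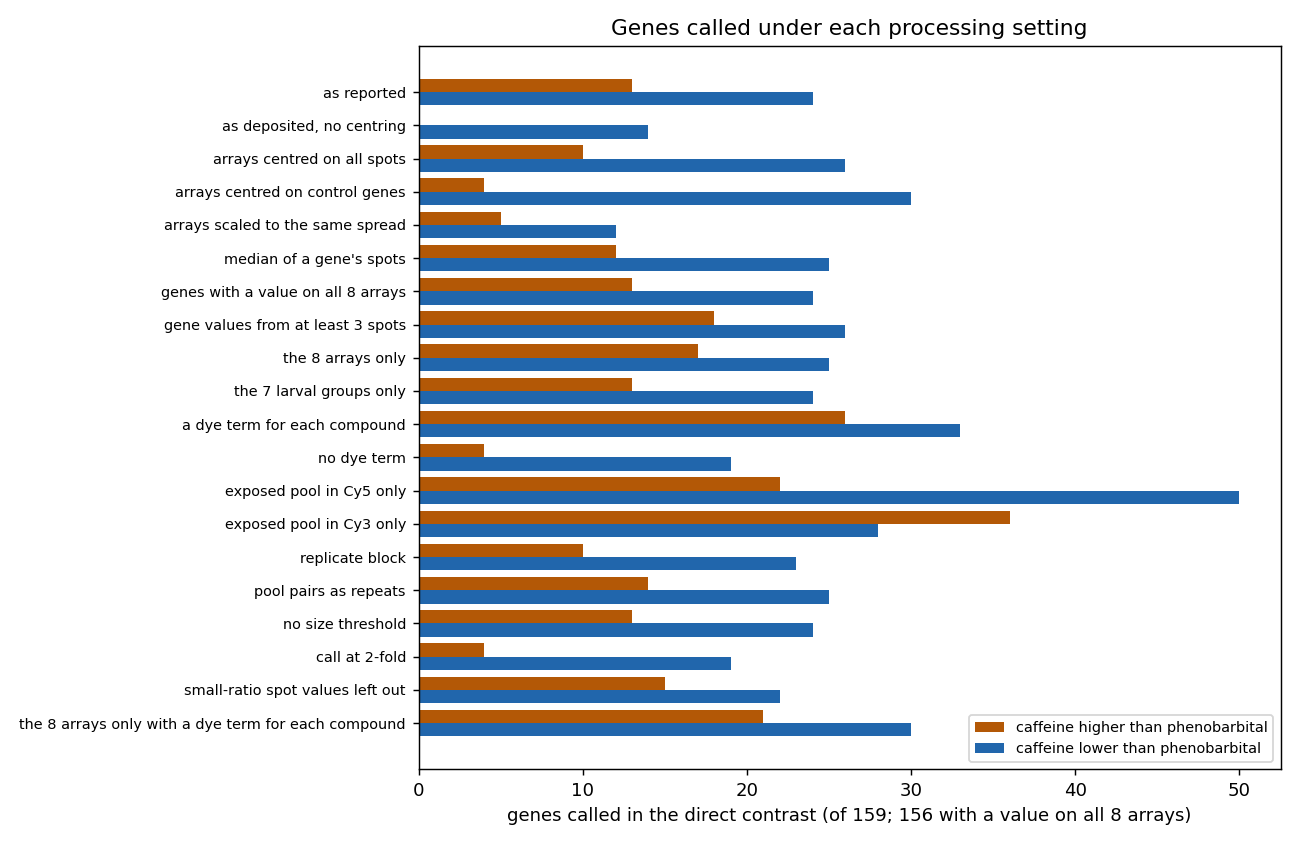
Number of genes called higher (brown, upper bar) and lower (blue, lower bar) with caffeine than with phenobarbital, for the values as reported (13 and 24) and for each other processing setting. The number higher runs from 0 with arrays as deposited to 36 with the exposed pool in Cy3 only, and the number lower from 12 with arrays scaled to the same spread to 50 with it in Cy5 only.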

How the data were processed

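The authors deposited 1 log2 ratio between the dyes for each of 1936 spots of an array. The submitters' processing notes name limma without a version or a role. Background handling, normalization and the numerator dye are not given in the sources used here. Empty values and a ceiling code equal to the log2 of 100000 were treated as missing, 5.05% of the named-gene spot values on the 8 arrays. The platform table gave 1 symbol to 656 spots, which covered 159 genes, and several to 8. Of the genes 158 were found in the RefSeq table. Sequences were not used here. No intensities were used, so signal over background is unknown and the number of arrays limits precision.

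Spots of a gene were averaged, the median over named genes was subtracted from each array, and ratios were turned to exposed over control. Before centring, the array medians on the 8 arrays ran from -1.95 to -0.22. In R 4.3.3, limma 3.58.1 (lmFit, eBayes, two-sided) fitted 34 arrays with 1 coefficient per compound and stage and a common dye term. Array 4 of DDT adults and array 4 of phenobarbital adults held identical values and were left out. The fit was run on simulated data with independent noise and a dye effect common to all groups. Neither the dye pattern of the caffeine arrays nor the shared pools were simulated, so that run cannot test the fit for these. Figures used matplotlib 3.10.9, numpy 2.4.6 and pandas 2.3.3 in Python 3.11.15.

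The members and gene lists were chosen with earlier results of these data known. Named genes were the 10 most positive and 10 most negative called differences, the 6 genes raised by both compounds with the smallest difference, any gene called in opposite directions, 6 inducible genes of earlier literature and the control genes; any other is said to be chosen after its values were seen or stands as a member of a list or a neighbour. Same-numbered arrays of the 2 compounds deviated together (r = 0.438 to 0.574 across genes), but other numbers of the same dye did nearly so (0.408 to 0.512), and the labels give the numbers to arrays and no shared batch. The replicate block is given where it changes a call. Alternatives covered centring, scaling, spots, arrays fitted, dye, block, pool pairs, thresholds and each array left out. The alternatives that leave out small-ratio spot values (ratios of whole numbers up to 5) and that fit the 8 arrays with a dye term for each compound were chosen after seeing the data.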

Additional observations from a re-analysis of the deposited data

How the results depend on the processing

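Over the named genes and 27 alternatives, 715 results kept direction and call, 95 lost the call, 18 gained one and 9 turned sign. GstD2, Cyp4d14, Cyp28a5, Cyp6a21, Cyp6a9, GstD5, Cyp4e3 and Hsp22 kept their call in all 27. The number of genes higher with caffeine was 0 as deposited (by limma, 2 at an unadjusted p under 0.05), 4 on control genes, 5 scaled, 26 with a dye term for each compound, 21 with such terms on the 8 arrays alone, 4 without a dye term, 22 with Cy5 only, 36 with Cy3 only and 4 at 2-fold. The number lower was 14 as deposited, 12 scaled and 50 with Cy5 only. Genes called with caffeine over control, 28 as reported, were 50 on control genes, 18 without a dye term, 69 with Cy5 only, 77 with Cy3 only (where phenobarbital also gave 77) and 14 at 2-fold. Those called with phenobarbital, 69 as reported, were 37 scaled and 39 at 2-fold. With any 1 array left out the counts ran from 9 to 12 higher, 21 to 26 lower, 24 to 31 with caffeine and 60 to 70 with phenobarbital. The replicate block gave 10 higher and 23 lower, 28 with caffeine and 68 with phenobarbital, and changed no named call but those of Cyp6a8 and Gdap1. Sign turned for GstD11 with Cy3 only (-0.13), Cyp6d5 scaled (0.12) and with Cy3 only (0.25), Cyp6a2 from at least 3 spots (0.48), Gapdh1 on control genes (-0.0027), RpL10Aa as deposited (-0.048), on control genes (-0.067) and with Cy5 only (-0.045), and RpS21 with Cy5 only (-0.046). The cause was not tested. In 62 sets of 4 arrays, 1 per named gene and compound, 0 had an array so far from the rest that Dixon's 95% criterion was passed.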
